A study of Mus musculus with 18 samples.

Results

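The 3 genes described here, Scn4a, Scn4b and Clcn1, encode channels that set the electrical excitability of adult skeletal muscle, and they were taken by name as 3 of the 23420 genes in the deposited RNA-seq table of ageing mouse hindlimb muscle. Female C57BL/6J mice of 2, 20 and 28 months were compared with no treatment or gene alteration in any group, and each age gave 3 RNA-seq libraries, hereafter 2-m, 20-m and 28-m muscle. Methyl-binding-domain capture sequencing (MBD-seq), in which methylated DNA fragments are captured and sequenced, was labelled as 2 libraries of muscle and 1 of splenic T cells per age, from DNA pooled over 3 mice. The deposited MBD-seq table has 1 muscle column per age, and which of the 2 muscle libraries it holds, or whether it holds both, is not given in the sources used here. Hindlimb muscle is a mixture of muscles and cell types, so fewer cells of a type and less RNA per cell cannot be told apart in these values. The labels do not say which mouse each RNA library came from, so p-values measure the spread between these libraries. Normalized counts here are read counts divided by a size factor for each library.

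Scn4a encodes the pore-forming alpha subunit of the sodium channel that carries the action potential along the adult fibre membrane. Scn4b encodes an accessory beta subunit, a membrane protein that binds sodium channel alpha subunits and shapes their gating. Clcn1 encodes the chloride channel that stabilizes the resting potential and lets the membrane settle after each action potential. Loss of that chloride channel gives myotonia, and altered gating of the sodium channel gives myotonia or periodic paralysis. When a muscle loses its nerve, fibres begin to make embryonic acetylcholine receptor subunits and embryonic myosin, so a list of denervation markers was read beside the adult channels.

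In GRCm38 coordinates with GENCODE vM21 annotation, Scn4a spans chr11:106318592-106353288 on the minus strand, with 24 exons in its longest transcript. Scn4b spans chr9:45138395-45154152 on the plus strand with 5 exons. Clcn1 spans chr6:42286685-42315756 on the plus strand with 23 exons. The last 445 bases of Clcn1 (chr6:42315312-42315756) overlap Fam131b on the opposite strand, and the library kit does not mark strand, so reads from that stretch cannot be assigned to either gene. Fam131b itself had 198 to 525 normalized counts across the 9 libraries.

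The promoters of the 3 genes are shown because they lie inside the MBD-seq windows described below, and methyl-binding capture depends on the CpG dinucleotides they hold. Each sequence runs 5′ to 3′ on the gene's strand, from 250 bases before to 50 bases after the RefSeq start in GRCm38.p6, with every CpG in capitals. The windows are chr11:106349341-106349640 (minus strand) for Scn4a, chr9:45138374-45138673 (plus) for Scn4b and chr6:42286435-42286734 (plus) for Clcn1. The MBD-seq windows are centred on GENCODE starts, which equal the RefSeq start for Clcn1 and lie 1 base from it for Scn4a and 229 bases upstream of it for Scn4b.
Scn4a: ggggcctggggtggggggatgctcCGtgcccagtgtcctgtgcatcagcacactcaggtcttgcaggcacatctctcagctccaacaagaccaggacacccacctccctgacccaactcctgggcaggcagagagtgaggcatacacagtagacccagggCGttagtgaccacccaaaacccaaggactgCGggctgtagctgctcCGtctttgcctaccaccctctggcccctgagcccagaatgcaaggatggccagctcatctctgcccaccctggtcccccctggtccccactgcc
Scn4b: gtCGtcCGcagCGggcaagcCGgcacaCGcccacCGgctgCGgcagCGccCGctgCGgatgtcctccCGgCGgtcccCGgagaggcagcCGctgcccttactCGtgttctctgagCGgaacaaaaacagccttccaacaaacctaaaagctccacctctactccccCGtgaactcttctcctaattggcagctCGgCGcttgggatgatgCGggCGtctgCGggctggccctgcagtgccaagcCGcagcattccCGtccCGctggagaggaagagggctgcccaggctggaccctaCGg
Clcn1: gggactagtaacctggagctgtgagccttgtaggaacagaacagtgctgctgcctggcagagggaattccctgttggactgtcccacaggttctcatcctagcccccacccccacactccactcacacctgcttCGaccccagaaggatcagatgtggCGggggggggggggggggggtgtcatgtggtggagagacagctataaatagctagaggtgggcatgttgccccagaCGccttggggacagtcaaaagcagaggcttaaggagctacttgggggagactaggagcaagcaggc
The Scn4b window held 26 CpGs and stood at the 83.1 percentile of 32851 RefSeq promoters of the same length, whose median was 7. The Scn4a window held 4 CpGs and the Clcn1 window held 3. The E-box letters CANNTG, the general form bound by myogenic factors, occurred 3 times in the Clcn1 window and in neither of the others, against 72.3% of all promoters with a match on either strand. The form CAGCTG was in none of the 3 windows and in 16.3% of all promoters. These matches are letters only, and their absence from a 300-base window says nothing of the factors.

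Total reads on genes ran from 20203833 in 28-m replicate 3 to 71115244 in 20-m replicate 3. The skeletal muscle label held, with the fibre genes Acta1 and Ckm ranked 1 and 9 of 21777 genes per kilobase. The libraries numbered 3 differed from the rest of each age in composition, with 36.3 to 39.9% of normalized counts in their 20 most abundant genes against 49.1 to 54.6% in the others. In 2-m replicate 2 the summed slow fibre markers reached 119056 normalized counts, and the slow myosin heavy chain gene Myh7 was at 44701 against 2773 and 8400 in the other 2-m libraries.

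Scn4a had normalized counts of 23183, 22674 and 26947 in 2-m muscle, 26564, 27346 and 26785 in 20-m muscle, and 23246, 21861 and 23562 in 28-m muscle. The 2-m libraries spread across nearly the full range of the other ages, whereas every 28-m library lay below every 20-m library. The means were 24268 ± 2334 at 2 months, 26898 ± 403 at 20 months and 22889 ± 905 at 28 months (SD, n = 3 each). On the log2(normalized count + 1) scale, 20-m muscle differed from 2-m muscle by 0.15 (95% interval -0.03 to 0.33; limma, adjusted p = 0.237). For 28-m against 2-m muscle the difference was -0.08 (-0.26 to 0.10; limma, adjusted p = 0.574). The difference of 28-m from 20-m muscle was -0.23 (-0.42 to -0.05), with an unadjusted p of 0.0158 by limma and an adjusted p of 0.332, so it did not pass across all genes. Groups that did not overlap, with 28-m libraries the lower, were found for 8.84% of the 13178 genes tested.

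Scn4b had normalized counts of 23185, 27216 and 21468 at 2 months, 20121, 21646 and 20056 at 20 months, and 17969, 22727 and 16382 at 28 months. Replicate 2 was the highest library of each age, and at 28 months it stood above all 20-m libraries while the other 28-m libraries stood below them. The group means were 23957 ± 2951, 20608 ± 900 and 19026 ± 3302 (SD, n = 3 each). The log2 difference of 28-m from 2-m muscle was -0.34 (-0.60 to -0.08), a fold of 0.790 (0.660 to 0.946), with an unadjusted p of 0.0145 and an adjusted p of 0.0812 by limma. At 20 months the difference from 2 months was -0.21 (-0.47 to 0.05; limma, adjusted p = 0.253), and between 20 and 28 months it was -0.13 (-0.39 to 0.13; limma, adjusted p = 0.759). Without 28-m replicate 2 the difference of 28-m from 2-m muscle was -0.47 with a limma adjusted p of 0.0134, and without 2-m replicate 2 it was -0.24. A term for the libraries numbered 3 left -0.34 with a limma adjusted p of 0.0315. The libraries 2-m replicate 2 and 28-m replicate 2 also had the highest counts of Myh1, the fast IIX myosin heavy chain gene, at 403737 and 401115 against 169218 to 305658 in the other 7 libraries, and the part of fibre type in the Scn4b values was not tested.

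Clcn1 had normalized counts of 5158, 5420 and 5753 at 2 months, 5640, 6155 and 6080 at 20 months, and 5803, 5469 and 5715 at 28 months. All 9 values lay within a narrow band, and the 3 ages overlapped. The means were 5444 ± 298, 5958 ± 278 and 5662 ± 173 (SD, n = 3 each). The log2 difference from 2-m muscle was 0.13 at 20 months (-0.03 to 0.29; limma, adjusted p = 0.243) and 0.06 at 28 months (-0.10 to 0.22; limma, adjusted p = 0.653). Between 20 and 28 months it was -0.07 (-0.23 to 0.08; limma, adjusted p = 0.777). The intervals limited any change of Clcn1 to folds between 0.852 and 1.22 in the 3 comparisons.

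**Figure D1:**
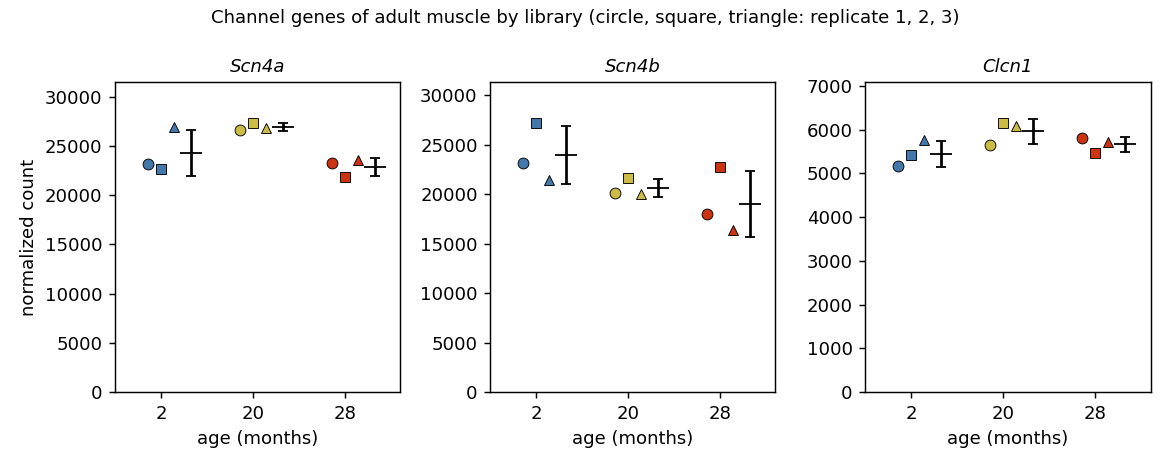
Normalized count (vertical axes, starting at 0) against age in months for Scn4a, Scn4b and Clcn1. Each symbol is 1 library (circle, square and triangle for replicates 1, 2 and 3) and the bar beside it is the mean ± SD of 3 libraries. Scn4a in 28-m muscle lies below 20-m muscle, and the ages overlap for Scn4b and Clcn1.

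None of the 3 channel genes passed the adjusted threshold in any comparison with all 9 libraries and age as the only term, by limma, edgeR or DESeq2, and the settings under which Scn4b passed are those given above and a replicate block (limma, adjusted p = 0.00896). For comparison, limma called 16.6% of the 13178 genes tested at 20 against 2 months, 13.8% at 28 against 2 months and 0.379% at 28 against 20 months. At an unadjusted p under 0.05, limma, edgeR and DESeq2 each gave 0 of 3 genes at 20 against 2 months, 1 at 28 against 2 months (Scn4b) and 1 at 28 against 20 months (Scn4a). By limma 31.5%, 28.2% and 10.6% of all genes tested were under that threshold in the 3 comparisons. With the 6 libraries of 20 and 28 months set against the 3 of 2 months, two-sided exact permutation tests gave p = 0.738 for Scn4a, 0.0714 for Scn4b and 0.119 for Clcn1. Adjusted over these 3 tests the exact p-values were 0.738, 0.179 and 0.179, where 0.0119 is the smallest unadjusted p that 84 splits allow.

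Levels between genes were compared as normalized counts per kilobase of the longest transcript. The order from high to low was Scn4b, Scn4a and Clcn1, at ranks 361, 422 and 960 of 21777 genes. Scn4b stood at 4809 ± 592, 4136 ± 181 and 3819 ± 663 per kilobase in 2-m, 20-m and 28-m muscle (SD, n = 3 each). Scn4a was at 3678 ± 354, 4077 ± 61 and 3469 ± 137 per kilobase, and its values overlapped those of Scn4b at 20 and 28 months. Clcn1 was lowest of these in every library, at 1536 ± 84, 1681 ± 79 and 1597 ± 49 per kilobase. With the union of all exons as the length, the 2-m level of Clcn1 was 1003 per kilobase.

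**Figure D2:**
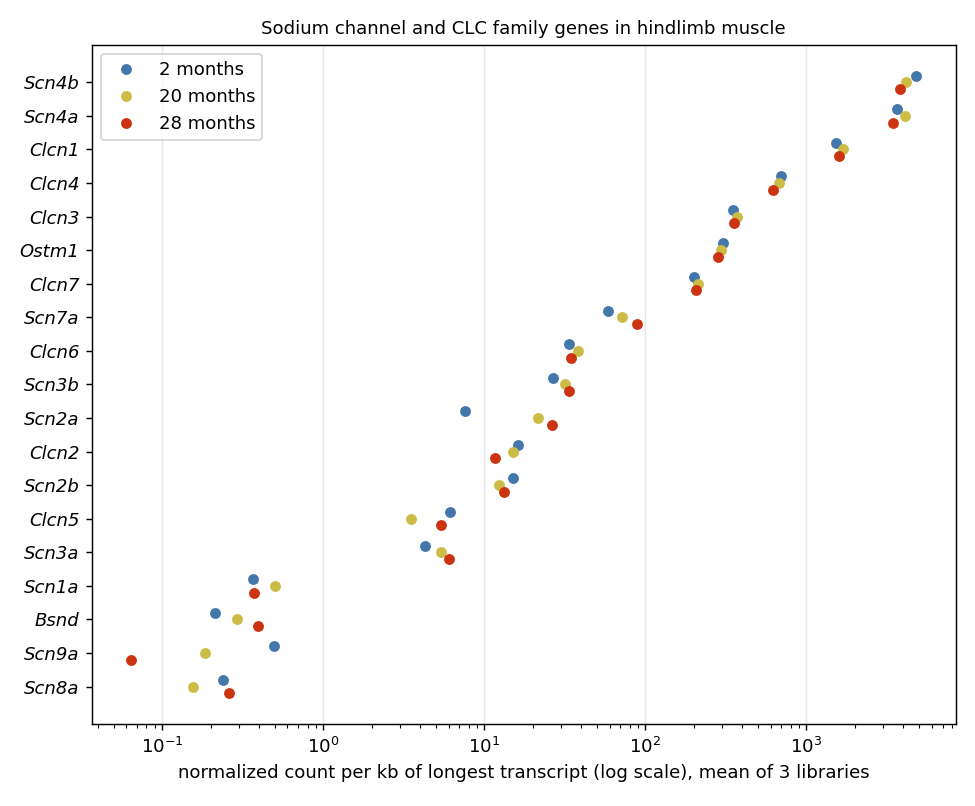
Mean normalized count per kilobase of the longest transcript (horizontal log axis, 3 libraries per point) in 2-m, 20-m and 28-m muscle. The genes are of the sodium channel and CLC families, with the CLC accessory genes Ostm1 and Bsnd. Among the genes shown, Scn4b, Scn4a and Clcn1 have the highest levels at every age.

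Ratios of these levels to Scn4a within each library were computed after the values had been seen. The Scn4b to Scn4a ratio per kilobase was 1.32, 1.59 and 1.06 in 2-m muscle, 1.00, 1.05 and 0.992 in 20-m muscle, and 1.02, 1.38 and 0.921 in 28-m muscle, so the ages overlapped. It averaged 1.32 ± 0.27, 1.01 ± 0.03 and 1.11 ± 0.24 (exact permutation p = 0.119, adjusted over 2 ratios 0.238), and that of Clcn1 to Scn4a averaged 0.419 ± 0.024, 0.412 ± 0.015 and 0.461 ± 0.008 (exact permutation p = 0.357, adjusted 0.357). In single libraries the Clcn1 ratio was 0.414, 0.445 and 0.397 at 2 months, 0.395, 0.419 and 0.422 at 20 months and 0.465, 0.466 and 0.451 at 28 months. Every 28-m value lay above all others, but how often ratios of other gene pairs separate in this way was not counted. Scn4a, the divisor, was itself lower in every 28-m library than in every 20-m library. The exact test sets 20 and 28 months together against 2 months, so it did not test this difference, which is given as a description.

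Of the other sodium channel beta subunits shown here, Scn2b, at 39.0 to 107 normalized counts, and Scn3b, at 81.6 to 167, were not called in any comparison with all libraries by limma, edgeR or DESeq2. Without 2-m replicate 2, Scn3b passed at 28 against 2 months, at 0.74 on the log2 scale (limma, adjusted p = 0.0467).

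Of 9 sodium channel alpha subunit genes, 4 had a mean of at least 10 normalized counts and were tested. At 20 against 2 months Scn2a rose, and at 28 against 2 months Scn2a and Scn7a rose. That is 1 and 2 of 4, against 9.42% and 7.53% of all genes called higher, and at 28 against 20 months limma called none (edgeR and DESeq2 also 0), with an unadjusted p under 0.05 for Scn4a and Scn7a. The median log2 difference of the 4 genes was 0.28, 0.50 and 0.20 in the 3 comparisons, beside -0.02, -0.01 and 0.00 over all genes tested. The 5 untested genes, Scn1a, Scn8a, Scn9a, Scn10a and Scn11a, reached at most 9.34 normalized counts in any library.

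Scn2a, a sodium channel gene best known from neurons, had normalized counts of 26.7, 148 and 28.9 at 2 months, 196, 235 and 147 at 20 months and 304, 181 and 221 at 28 months. The high 2-m value was that of replicate 2, the 2-m library with the most slow fibre RNA, although each 20-m and 28-m library held more. The log2 differences from 2 months were 1.93 at 20 months (limma, adjusted p = 0.0205) and 2.21 at 28 months (adjusted p = 0.0120). The call at 20 months was lost with edgeR (adjusted p = 0.0530) and DESeq2 (0.0987) and without 2-m replicate 1 (limma, 0.0795), 2-m replicate 3 (0.0679), 20-m replicate 1 (0.0702) or 20-m replicate 2 (0.0776). That at 28 months was lost without 2-m replicate 1 (limma, adjusted p = 0.0508) or 28-m replicate 1 (0.0567). Scn7a, an atypical family member that senses sodium, had 446, 405 and 449 at 2 months, 538, 489 and 547 at 20 months and 634, 595 and 730 at 28 months. The 3 ages did not overlap, and of all genes tested 18.4% had every 20-m library and 15.3% every 28-m library above the 2-m libraries, and 8.63% every 28-m library above the 20-m libraries. It rose by 0.59 on the log2 scale at 28 against 2 months (limma, adjusted p = 0.00489), a call lost after rescaling to the same sum (0.181). Scn3a, at 33.1 to 79.7 normalized counts, did not pass in any comparison.

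**Figure D3:**
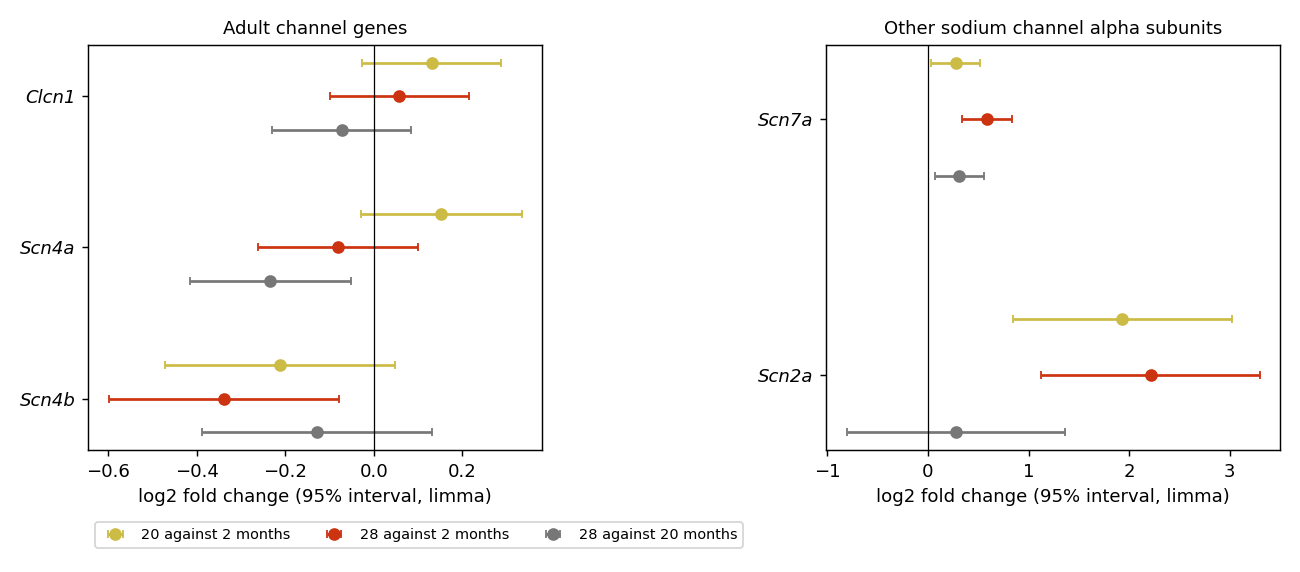
Log2 fold change (horizontal axes) with its 95% interval from limma for 20 against 2, 28 against 2 and 28 against 20 months. Left, Clcn1, Scn4a and Scn4b lie within 0.60 of 0 on the log2 scale, intervals included; right, on a wider axis, all points of Scn2a and Scn7a lie above 0, and the interval of Scn2a for 28 against 20 months crosses it.

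The CLC family of chloride channels and proton-coupled exchangers was read with the accessory genes Ostm1 and Bsnd. Of these 9 genes 8 were tested, and limma, edgeR and DESeq2 called none in any comparison. At an unadjusted p under 0.05 in limma there was 1 gene, Clcn4, at 28 against 2 months, where 28.2% of all genes were under it. Clcn3 and Clcn4, exchangers of internal membranes, ran from 2603 to 3251 and from 2820 to 3258 normalized counts. Clcn7, the lysosomal exchanger, and its partner Ostm1 ran from 776 to 991 and from 1087 to 1439. Clcn2, Clcn5 and Clcn6 reached at most 80.1, 68.3 and 214, and the kidney gene Bsnd reached at most 1.90. The 8 regulators of Clcn1 splicing and related genes of myotonic dystrophy (Mbnl1, Mbnl2, Mbnl3, Celf1, Celf2, Celf4, Cnbp and Dmpk) were likewise not called by limma, edgeR or DESeq2 in any comparison with all libraries, and Mbnl2 passed without 28-m replicate 2 (limma, 0.26 at 20 months, adjusted p = 0.0377, and 0.38 at 28 months, 0.0140). At an unadjusted p under 0.05 in limma there was 1 of them at 20 against 2 months (Cnbp), 0 at 28 against 2 months and 3 at 28 against 20 months (Mbnl1, Celf2 and Dmpk). Of all genes tested, 31.5%, 28.2% and 10.6% were under it in these 3 comparisons.

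Of 11 tested partners of the sodium channel, Fgf13, which encodes an intracellular factor that binds the channel's tail, rose by 0.58 at 20 months (limma, adjusted p = 0.00777) and 0.42 at 28 months (0.0395) on the log2 scale, both against 2 months. The call at 28 months was lost under 10 of 20 alternatives, edgeR (adjusted p = 0.0516) and the fit without 2-m replicate 2 (limma, 0.0934) among them. The calmodulin gene Calm2 fell by 0.47 at 20 months (limma, adjusted p = 0.00705) and Calm3 fell by 0.60 at 28 months (0.00561). Both calls were lost only after rescaling to the same sum (limma, adjusted p = 0.287 and 0.0926), as was that of Fgf13 at 20 months (0.165). At 20 months Calm3 was at -0.37 (limma, adjusted p = 0.0503) and passed as lower under 7 of 20 alternatives, among them DESeq2 (adjusted p = 0.0214) and the fit without 2-m replicate 2 (-0.48; limma, 0.0142). The anchor Ank3 and the ubiquitin ligases Nedd4 and Nedd4l were not called by limma with all libraries, and Nedd4 passed without 28-m replicate 2 (limma, 0.22 at 20 months, adjusted p = 0.0475, and 0.30 at 28 months, 0.0260). Of all genes, 7.13% were called lower at 20 months and 6.24% at 28 months.

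The sodium pump restores the sodium and potassium gradients that the channels run down, and 8 of its genes were read here. Fxyd1, the pump regulator phospholemman, fell by 0.42 at 20 months (limma, adjusted p = 0.0164) and 0.35 at 28 months (0.0409) on the log2 scale, and the beta subunit Atp1b2 fell by 0.61 at 28 months (0.00725). The Fxyd1 call at 28 months was lost under 10 of 20 alternatives, edgeR (adjusted p = 0.0514) and the fit without 2-m replicate 2 (limma, 0.102) among them, and that at 20 months under 3. The Atp1b2 call was lost only after rescaling to the same sum (limma, adjusted p = 0.148). The other genes of the list, Atp1a4, Atp1b1, Atp1b3, Atp1b4, Fxyd5 and Fxyd6, were not called by limma with all libraries. Fxyd6 passed at 20 against 2 months under 9 of 20 alternatives, at 0.43 with DESeq2 (adjusted p = 0.0220) and 0.57 without 2-m replicate 2 (limma, 0.0119). Without that library Atp1b2 was also lower at 20 months, at -0.42 (limma, adjusted p = 0.0291), and the beta subunit Atp1b1 was higher, at 0.89 at 20 months (limma, adjusted p = 0.000112) and 0.63 at 28 months (0.00141), and Atp1b4 passed at 28 months with a term for the libraries numbered 3 (0.50; limma, 0.0494).

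Of 13 denervation markers, 8 rose at 20 against 2 months, 11 at 28 against 2 months and 2 at 28 against 20 months, where 9.42%, 7.53% and 0.212% of all genes were called higher. Their median log2 differences were 0.66, 1.26 and 0.46. Chrna1 had 722, 754 and 787 normalized counts at 2 months, 900, 1276 and 878 at 20 months and 1541, 1486 and 1840 at 28 months, without overlap (28 against 2 months, 1.10; limma, adjusted p = 0.000261). The embryonic receptor gene Chrng had 0, 8.81 and 2.89 at 2 months, 14.9, 52.3 and 14.7 at 20 months and 20.9, 55.2 and 18.9 at 28 months, and its calls were lost under 12 of 19 alternatives at 20 months and 7 of 19 at 28 months. Its adult counterpart Chrne did not pass, with a log2 difference of 0.07 at 28 months (limma, adjusted p = 0.779).

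The embryonic myosin gene Myh3 rose by 1.89 and 2.51 (limma, adjusted p = 5.52e-06 and 8.46e-07) and the transcription factor Runx1 by 1.32 and 2.76 (0.00971 and 9.5e-05) on the log2 scale at 20 and 28 months. Kcnn3, a calcium-activated potassium channel of denervated fibres, rose by 1.72 at 20 months (limma, adjusted p = 0.00304), with 66.9 to 174 normalized counts at 2 months, 232 to 459 at 20 months and 444 to 453 at 28 months. Myog and Gadd45a differed between 20 and 28 months, by 1.26 and 1.33 (limma, adjusted p = 0.0473 and 0.00032), and neither passed at 20 against 2 months by limma. The Myog call was lost under 9 of 20 alternatives, with adjusted p up to 0.220 (limma, without 20-m replicate 1), and the Gadd45a call under none. The library 20-m replicate 2 was the highest 20-m library for Chrna1, Chrnb1, Chrnd, Chrng, Runx1, Kcnn3, Myog and Gadd45a, but not for Myh3, Musk or Ncam1. At 20 against 2 months the calls of Chrnb1, Chrnd and Ncam1 were lost after rescaling to the same sum (limma, adjusted p = 0.0737, 0.0830 and 0.152). Over 20 alternatives Chrnb1 was lost under 1, Chrnd under 3 and Ncam1 under 4, and Chrna1 was gained under 4. Without 2-m replicate 2 the counts of genes that rose were 7, 11 and 4, and with a term for the libraries numbered 3 they were 9, 11 and 5. With that term Myh8, a developmental myosin gene at 4665 to 7548 normalized counts, was lower at 28 against 2 months, at -0.27 (limma, adjusted p = 0.0237, against 0.286 without the term).

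**Figure D4:**
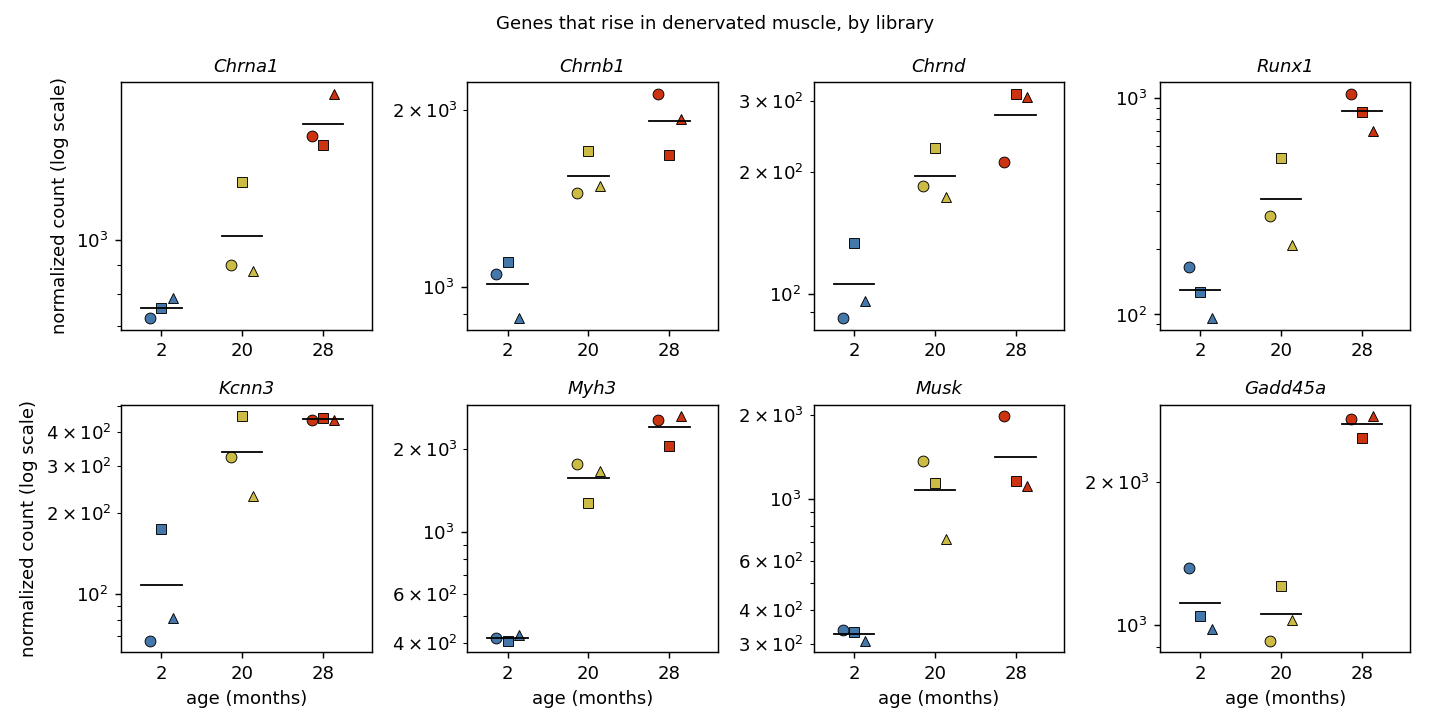
Normalized count (vertical log axes) against age in months for 8 denervation markers. Symbols are libraries as in the plot of the adult channels and the line is the mean of 3 libraries. Every 28-m value lies above every 2-m value in all 8 panels, and Gadd45a lies near its 2-m level at 20 months. Of all genes tested, 15.3% had every 28-m library above the 2-m libraries. The 8 genes were picked from 13 markers, and all 8 were called higher at 28 against 2 months by limma. Chrng, Chrne, Myog, Ncam1 and Myh8 are not shown, and of these Chrne and Myh8 were not called with all libraries.

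Fibre type and cell type markers moved with age as well. All 8 slow fibre markers rose at 28 against 2 months and 7 at 20 months, with Myh7 higher by 3.29 and 3.06 on the log2 scale, although edgeR called 4 and 5 of them and DESeq2 4 and 4, beside 7.53% and 9.42% of all genes called higher by limma. Their sums ran from 14557 to 119056 normalized counts at 2 months, 166426 to 294066 at 20 months and 206629 to 259734 at 28 months. Of 10 fast fibre markers, Myh2 rose and Mylpf and Pvalb fell at both ages, and Tnnc2 and Actn3 fell at 28 months. Of these calls at 28 months, those of Myh2 and Mylpf were each lost under 9 of 20 alternatives, Actn3 under 11 and Tnnc2 under 12, and Pvalb under none. Of 6 fibroblast and matrix markers, the collagen genes Col1a1, Col1a2 and Col3a1 fell at both ages. Pdgfra, Dcn and Lum were not called by limma with all libraries. Without 2-m replicate 2, Pdgfra and Lum were lower at 20 months (limma, adjusted p = 0.0474 and 0.0291). Sums of all 6 markers were 51087 to 106411 at 2 months, 21889 to 24764 at 20 months and 21815 to 29894 at 28 months. Of 6 adipocyte markers 4 fell at 20 months and 2 at 28 months, of 7 nerve and Schwann cell markers Pmp22 fell at 20 months, and of 5 smooth muscle markers Smtn fell at 20 months, beside 7.13% and 6.24% of all genes called lower at 20 and 28 months. At 20 months the call of the adipocyte gene Adipoq was lost under 9 of 20 alternatives, those of Cidec and Plin1 under 3 each, Pmp22 under 4 and Smtn under 1. None of 6 endothelial or 6 macrophage markers and not the 1 red blood cell marker tested was called by limma, edgeR or DESeq2 in any comparison with all libraries (at an unadjusted p under 0.05 in limma, Tek and Mrc1 at 20 against 2 months). Without 2-m replicate 2 the endothelial marker Pecam1 was higher, by 0.33 and 0.38 at 20 and 28 months (limma, adjusted p = 0.0307 and 0.0172), and the macrophage marker Mrc1 lower, at -0.65 and -0.61 (0.0332 and 0.0454). Without 2-m replicate 1 the red blood cell marker Alas2 was higher, by 1.05 and 1.48 (limma, adjusted p = 0.0105 and 0.00143). The part of these markers in the channel values was not tested.

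Over the 9 libraries, the genes whose log2 values followed each channel gene most closely were listed as a description. For Scn4a they were E2f6, Phka1 and Brpf3 (Pearson's r of 0.950, 0.948 and 0.946). For Scn4b they were Ndufs7, Trpt1 and R3hcc1 (0.969, 0.964 and 0.962), and for Clcn1 they were Ube2d3, Gpr155 and Srsf2 (0.956, 0.952 and 0.944). The points share library, depth and age group, and these are the highest values among 13178 genes.

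MBD-seq signal was read as the mean normalized count per 500-bp bin in a 2-kb window at each gene start and over the gene body. With 1 deposited column per tissue and age there is no replicate, so no test was made, and intervals are 95% Poisson intervals that cover counting error only. At the Scn4a start, muscle gave 48.0 (42.4 to 54.2) at 2 months, 31.5 (27.1 to 36.3) at 20 months and 29.8 (26.1 to 33.9) at 28 months. Both older values lay below the 2-m interval, while the start stood at the 96.1, 92.0 and 97.0 percentiles of genes at 2, 20 and 28 months. T cells gave 70.9, 67.4 and 84.6 at the same ages. The CpG-rich start of Scn4b, whose sequence is printed above, carried little signal, at 4.55 (2.94 to 6.71), 2.69 (1.54 to 4.38) and 7.27 (5.50 to 9.41) in muscle, from 25, 16 and 57 reads. The Clcn1 start gave 10.01 (7.54 to 13.0), 7.41 (5.38 to 9.95) and 14.3 (11.8 to 17.2).

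The median gene start rose from 8.01 to 10.3 between 2-m and 28-m muscle. Over starts with at least 10 reads at either age, the median log2 ratio was 0.28 and 37.8% fell. The Scn4a start, at -0.67, was among those that fell, while Scn4b and Clcn1, at 0.58 and 0.47, rose. The Scn4a start had a high 2-m signal (96.1 percentile). The paper reports loss of methylation in highly methylated regions and gain in weakly methylated ones. Whether Scn4a differs from starts of like level was not tested. The Scn4a ratio was -0.37 in a 5-kb window and -0.24 after the libraries were rescaled to the same sum, the Scn4b ratio turned to -0.15 in a 5-kb window, and the Clcn1 ratio was 0.24 in a 1-kb window and 0.88 after rescaling. Over the gene bodies the log2 ratio of 28-m to 2-m muscle was -0.68 for Scn4a, 0.03 for Scn4b and 0.18 for Clcn1, against a median of -0.22.

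**Figure D5:**
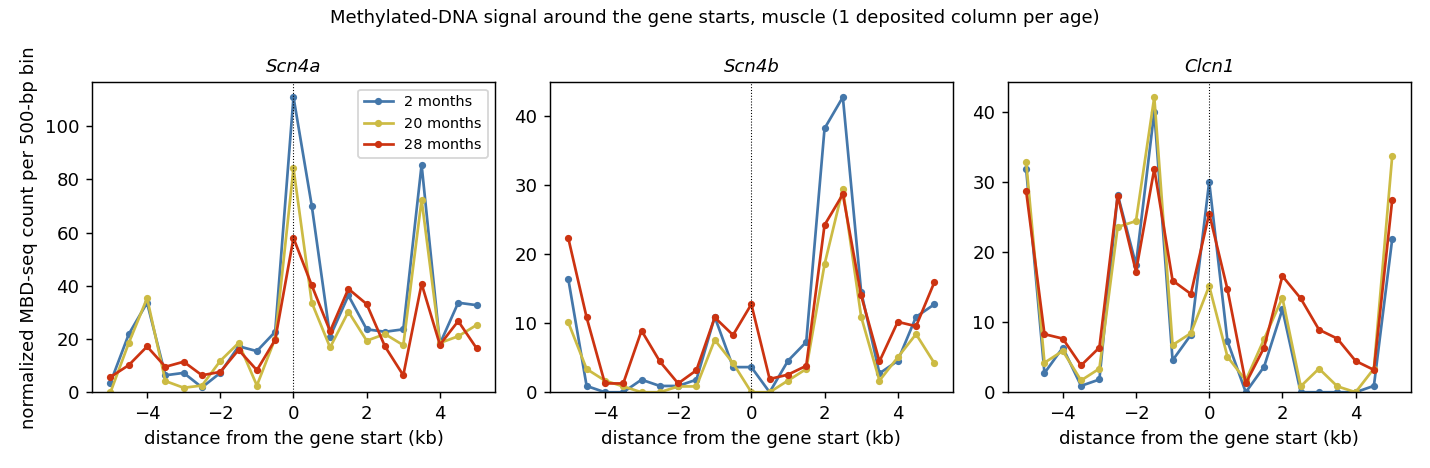
Normalized MBD-seq count per 500-bp bin (vertical axes) against distance from the gene start in kilobases for Scn4a, Scn4b and Clcn1 in 2-m, 20-m and 28-m muscle, 1 deposited column per age. At the Scn4a start the bin holds 111, 84.2 and 58.0 counts in that order of age, and Scn4b has its highest bin 2.5 kb downstream of its start.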

How the data were processed

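RNA-seq of hindlimb muscle (3 libraries per age) and MBD-seq of pooled muscle DNA (2 libraries per age in the labels, 1 deposited column per age) and T cell DNA (1 per age) were used. According to the study's methods, reads were trimmed with Trim Galore, MBD-seq reads were aligned to mm10 with Bowtie2, and RNA-seq reads were counted on genes with HTSeq; the methods name Hisat2 as the RNA aligner and the submitters' processing notes name TopHat. The deposited signal values are counts that the authors divided by DESeq2 size factors, and 100% were whole reads (tolerance 0.01 reads) once multiplied back. 5 summary lines (reads without a gene, 37.9 to 47.7% of each column) were left out. Genes with a mean of at least 10 were tested on log2(normalized count + 1) with limma 3.58.1 (R 4.3.3) in 1 fit of 9 libraries with age only, with Benjamini-Hochberg adjustment over 13178 genes and a threshold of 0.05. A fold change on this scale understates that of low genes. The recovered reads were also fitted with DESeq2 1.42.0 and edgeR 4.0.16, and these fits, other scalings, filters and left-out libraries were alternatives. In data simulated for 20 against 2 months over 13178 genes, 89.4% of 2-fold and 95.8% of 4-fold changes were called. The simulation gave every gene the same spread and the libraries no difference in composition. Changes smaller than 2-fold were not simulated, so these shares do not carry over to the channel genes. Same-numbered libraries deviated together at r over 0.1 only for number 3 (0.109 to 0.161), so numbers were not used as pairs. Replicates 2 of 2-m and 28-m muscle gave 0.0998, just under that limit. The differently numbered 20-m replicate 2 and 28-m replicate 1 gave 0.117. Poisson intervals cover counting error only. Named genes were the 3 channel genes, every tested gene of their families, and of each other list up to 4 called genes per comparison by size; further genes were named after their values were seen. The genes and lists were chosen with earlier results of these data known. Some genes of these families and lists are not reported here and are left out of the list counts.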

Additional observations from a re-analysis of the deposited data

Results flagged for a closer look

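At the starts of the 3 channel genes the MBD-seq signal moved in opposite directions in muscle and T cells in 4 of 6 age comparisons, as log2 ratios of the mean normalized count in the 2-kb window. At the Scn4a start, 28 against 2 months gave -0.67 in muscle and 0.25 in T cells. At the Scn4b start, 20 against 2 months gave -0.59 in muscle and 1.52 in T cells, from 25 and 16 reads in muscle and 16 and 46 reads in T cells. At the Clcn1 start, 20 against 2 months gave -0.39 in muscle and 0.53 in T cells, and 28 against 2 months gave 0.47 in muscle and -0.22 in T cells. The Scn4a start at 20 against 2 months (-0.59 and -0.07) and the Scn4b start at 28 against 2 months (0.58 and 0.79) moved the same way in both in that window. Within 1 kb all 6 comparisons, and within 5 kb 5 of 6, ran in opposite directions, the Scn4b start at 28 against 2 months giving 1.34 in muscle and -0.37 in T cells within 1 kb and -0.15 and 0.44 within 5 kb. Starts with at least 10 reads in each tissue at either age compared formed the background. Within 2 kb, 55.6% of them moved in opposite directions at 20 months and 57.9% at 28 months. The shares were 55.7% and 56.3% within 1 kb and 58.6% and 62.7% within 5 kb. Over gene bodies 4 of 6 comparisons ran in opposite directions, against 73.4% and 77.7% of all genes. Within 1 kb, Scn4b at 2 and 20 months had 8 and 5 muscle reads, under that floor. The T cell ratio of Scn4a at 20 months there was 0.012. In other windows the T cell ratio of Scn4b at 20 months was 0.31 within 1 kb, and the muscle ratio of Clcn1 at 20 months was -0.026 within 5 kb. Each tissue has 1 deposited column per age, and whether the tissues differ was not tested. Over all genes with enough reads, the median log2 ratio at the start for 20 against 2 months was -0.06 in muscle and 0.20 in T cells, and for 28 against 2 months 0.28 and 0.26.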

How the results depend on the processing

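Every log2 difference of Scn4a, Scn4b and Clcn1 kept its direction under 20 alternatives, and the 1 change of call concerned Scn4b at 28 against 2 months, which passed with a replicate block (-0.34, limma adjusted p = 0.00896), with a term for the libraries numbered 3 (-0.34, 0.0315) and without 28-month replicate 2, leaving out single libraries giving -0.47 to -0.24. Values near 0 moved by more than 1.5 times, for example Scn4a to 0.0015 at 20 against 2 months with quantile normalization and to -0.0031 at 28 against 2 months without 2-month replicate 3, and Scn4b at 28 against 20 months to -0.027 without 28-month replicate 3 and -0.26 without 28-month replicate 2. Leaving out single libraries moved Scn4a at 20 against 2 months between 0.11 and 0.23, Scn4b at 20 against 2 months between -0.29 and -0.12, and Clcn1 at 28 against 2 months between 0.020 and 0.098 and at 28 against 20 months between -0.11 and -0.048. The replicate numbers do not mark shared mice. Chrne at 28 against 2 months ranged from -0.051 to 0.17 on leaving out single libraries. Genes called over the whole table numbered 586, 554 and 24 at 20 against 2, 28 against 2 and 28 against 20 months after rescaling to the same sum. The last count was 228 with DESeq2, 122 with only the 2 ages compared, 138 with a replicate block and 103 with the term for the libraries numbered 3. Leaving out single libraries gave 1081 to 2310, 963 to 1913 and 14 to 89 genes, and counts over 1.5 times lower came without 2-month replicate 1 or 20-month replicates 1 or 2 in the first comparison, without 2-month replicate 1 or 28-month replicates 1 or 3 in the second, and without 20-month replicates 1 or 3 or any 28-month replicate in the third (89 was without 2-month replicate 2). The 2-month level of Clcn1 was 1003 per kilobase over the union of exons. At 28 against 2 months the MBD-seq log2 ratio of the Scn4a start was -0.37 within 5 kb and -0.24 after rescaling, and that of the Scn4b start 1.34 within 1 kb and -0.15 within 5 kb. The cause of these shifts was not tested. With 3 libraries per age, intervals of the channel genes allow folds of 0.660 to 1.26, and the methylation values have 1 column per age.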
